A study of Mus musculus with 8 samples.

Results

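The Hox, Meis and Pbx homeobox genes were read out in cultured mouse lymph node stromal cells after knockdown of Eif4g3. Members were the non-control probes whose gene name in the scanner tables was Hoxa, Hoxb, Hoxc or Hoxd followed by a number, or Meis or Pbx followed by a digit. Reported here are 58 of 41174 probes and 41 of 28599 genes, namely 10 Hoxa, 10 Hoxb, 8 Hoxc and 9 Hoxd genes, 1 Meis gene (Meis1) and 3 Pbx genes (Pbx2, Pbx3 and Pbx4). Lymph node stromal cells (LNSC) are the non-haematopoietic scaffold cells of the node, here from BALB/c mice and grown in culture. One group received 400 pmol of siRNA against Eif4g3 and the other 400 pmol of control siRNA, both by lipofection, and all cells were collected after 48 h. RNA was taken from the whole lysate (total RNA) and from the heavy fractions of a polysome gradient, which hold mRNAs that carry many ribosomes (heavy polysome RNA, or values in heavy polysomes). Each of 4 arrays of total RNA and 4 arrays of heavy polysome RNA set Eif4g3 siRNA cells in Cy5 against control siRNA cells in Cy3, both of the same fraction. By the design text 7 plates were used, in all or for each siRNA, and the cells were pooled ahead of the gradient. No array had the dyes swapped, and a probe's dye bias and a change of its transcript cannot be told apart within 1 fraction. Separate cultures for the replicates are not named in the labels, so p-values measure the spread between these samples, which may be technical.

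Hox genes encode homeodomain transcription factors that give cells their position along the body axes. In mice they lie in the clusters Hoxa, Hoxb, Hoxc and Hoxd, numbered from the end active in anterior regions (1) to the end active in posterior regions (13), and genes of the same number in different clusters are paralogues. Fibroblasts and other mesenchymal cells keep part of the Hox pattern of their site of origin in culture. Pbx and Meis proteins are homeodomain proteins of the TALE class that bind DNA together with Hox proteins. Eif4g3, also called eIF4GII, is a scaffold protein of the complex that recruits ribosomes to capped mRNAs.

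Unless another quantity is named, a value is the log2 ratio of knockdown (Eif4g3 siRNA) over control cells, with the SD over the 4 arrays of a fraction, and adjusted p-values are from limma over all 14849 tested genes. Testing required that, in 1 fraction or both, the brightest probe of a gene stood well above background on 3 or more of the 4 arrays, in either channel. The targeted gene fell in both fractions, to a log2 ratio of -2.07 ± 0.29 in total RNA (n = 4, adjusted p = 0.0020) and -2.46 ± 0.50 in heavy polysomes (n = 4, adjusted p = 0.00061). Its ratios on the single arrays lay between -3.16 and -1.81. Arrays that correlated least with the rest of their fraction were arrays 1 and 3 of heavy polysome RNA (mean r over genes 0.288 and 0.317) and array 4 of total RNA (0.326). Of the markers of fibroblastic stroma 14 of 16 were tested, and Pdpn, Pdgfra, Pdgfrb, Col1a1, Col1a2, Col3a1 and Thy1 were above background in both channels of all 8 arrays, while Ccl21a and Cxcl13 were never above it. Markers of other cells were tested in part, namely 3 of 8 of blood endothelium (Kdr, Vwf and Esam), 0 of 5 of lymphatic endothelium and 4 of 6 of epithelium (Krt8, Krt18, Krt14 and Krt5), and none of these, nor the lymphocyte marker Cd3e, passed in limma in either fraction. Pecam1, Lyve1, Ptprc and Cdh1 were not above background on any array. Of 9 macrophage and myeloid markers 5 were tested, with Adgre1, Itgam and Tyrobp never above background, and Csf1r fell in total RNA (-0.57 ± 0.30, adjusted p = 0.045) and Trem2 in heavy polysomes (-1.39 ± 0.71, adjusted p = 0.017). The log2 of the summed signal of the tested macrophage and myeloid markers ran from 10.88 to 11.47 in control and 10.10 to 11.32 in knockdown cells in total RNA, and from 10.79 to 11.89 and 9.92 to 11.37 in heavy polysome RNA.

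The Hoxa, Hoxb and Hoxc clusters and the TALE members were detected in these cells, and most of the Hoxd cluster was not. Tested members numbered 9 of 10 Hoxa genes, 8 of 10 Hoxb genes, 7 of 8 Hoxc genes, 2 of 9 Hoxd genes, Meis1 and all 3 Pbx genes, or 30 of 41 in all. For comparison, 51.9% of all genes on the array and 65.8% of those with a RefSeq name were tested. With 8 arrays and 2 channels each probe has 16 readings, and 16 member genes had a probe above background in all 16. These were Hoxa7, Hoxa9, Hoxa10, Hoxb2, Hoxb5, Hoxb6, Hoxb7, Hoxb9, Hoxc4, Hoxc6, Hoxc9, Hoxc10, Hoxc12, Meis1, Pbx2 and Pbx3. No Hoxd gene was among them. The share of all genes that meet this stricter demand is not given here.

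Of the 11 members that were not tested, 7 lay in Hoxd. Hoxa13, Hoxb1, Hoxc8, Hoxd1, Hoxd10, Hoxd11 and Hoxd13 had no reading above background on any probe. Hoxb8 reached 3 of 16 readings on its better probe, Hoxd4 reached 2, and Hoxd3 and Hoxd12 reached 1 each. At the dim edge of the tested members stood Hoxa6 with 5 readings, Hoxc5 with 6, and Hoxa2 and Hoxd9 with 9 each. Those 4 genes were not above background in both channels of at least 3 arrays of either fraction, which left 26 members under that stricter demand. In the Hoxd cluster Hoxd8 (15 readings) and Hoxd9 (9 readings) were the 2 genes tested, with a run of genes on either side that were not. Among the Hoxc genes with a probe under the rule the single gap was Hoxc8, between Hoxc6 and Hoxc9, both with 16 readings. Hoxc11, which lies between Hoxc10 and Hoxc12, had no probe under the rule, so its detection is unknown. The Hoxb cluster had its gaps at Hoxb1, its most anterior gene, and at Hoxb8, between Hoxb7 and Hoxb9. A reading below background bounds a level and does not show that the transcript is absent.

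**Figure D1:**
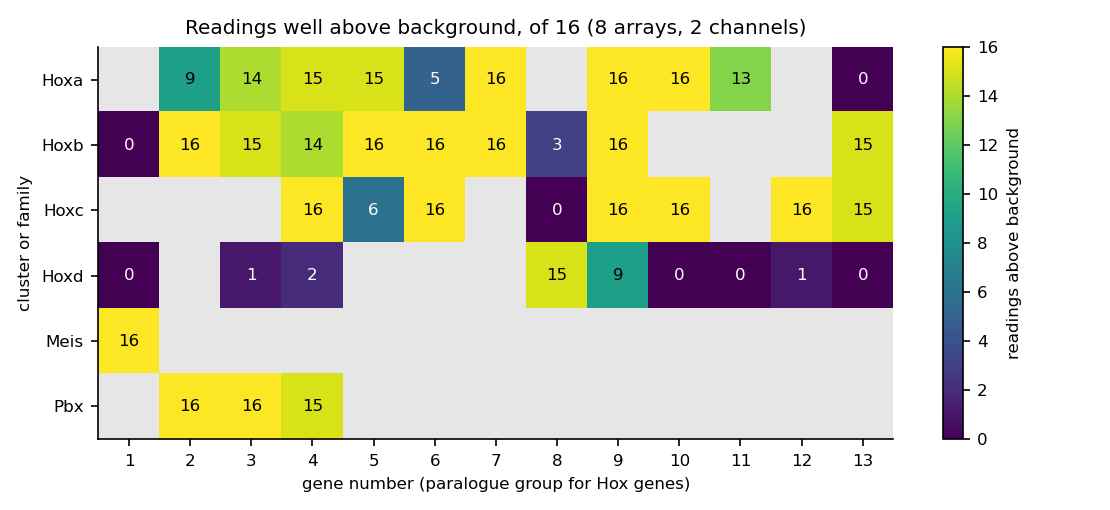
Number of readings well above background, of 16 (8 arrays with 2 channels each), for the best probe of each member gene, by cluster or family (vertical axis) and gene number (horizontal axis). Grey squares hold no value. Hoxd holds values of 0 to 2 except at Hoxd8 (15) and Hoxd9 (9), whereas the other clusters are mostly at 13 to 16.

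Promoter sequence upstream of the start site was at hand for part of the family and is shown for a gene that rose after knockdown and for a gene that was never above background. The RefSeq table of build GRCm38.p6 held 27 windows for 25 members, and Hoxa5 was the only one of the 4 genes that rose with an entry. Below are the 250 bases upstream of the start site, 5′ to 3′ on the strand of the gene, with capitals marking the CCAAT box, the element read by the factor NF-Y, on either strand. Hoxa5 lies on the minus strand at chr6:52204588-52204837, and Hoxd13 on the plus strand at chr2:74667975-74668224.
Hoxa5: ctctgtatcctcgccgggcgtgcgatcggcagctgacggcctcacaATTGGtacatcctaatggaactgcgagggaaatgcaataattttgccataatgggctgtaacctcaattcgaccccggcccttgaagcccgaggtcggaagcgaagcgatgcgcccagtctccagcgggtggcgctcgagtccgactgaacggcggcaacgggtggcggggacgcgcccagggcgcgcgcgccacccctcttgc
Hoxd13: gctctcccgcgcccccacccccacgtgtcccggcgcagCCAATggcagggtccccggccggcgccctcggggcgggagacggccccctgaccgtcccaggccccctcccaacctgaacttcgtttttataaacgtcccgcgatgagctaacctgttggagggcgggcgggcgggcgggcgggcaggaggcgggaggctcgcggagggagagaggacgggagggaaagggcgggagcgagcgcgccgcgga
The Hoxa5 window held 28 CG dinucleotides at a GC content of 63.6%, and the Hoxd13 window held 31 at 74.4%. The CCAAT box lay on the opposite strand in Hoxa5, starting at -204, and on the strand of the gene in Hoxd13, starting at -212. Letters CCAAT were found on either strand in 7 of 16 windows of tested members, in 9 of 11 windows of members that were not tested, and in 33.8% of all 32851 windows of that length. The joint Hox and Pbx motif TGATTNAT was found upstream of Hoxa2 and Hoxd11 and in 2.82% of all windows. The Meis motif TGACAG was found upstream of Hoxa2 and Hoxa3 and in 15.9% of all windows. The median GC content was 58.6% for tested members, 59.2% for members that were not tested and 52.4% for all windows. These matches describe letters in the windows and are no evidence of binding.

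After Eif4g3 knockdown 4 of the Hox genes reported here rose, and none of the reported members fell. In total RNA 3 of 30 tested members rose (10%, against 4.34% of all tested genes called in either direction, 1.67% higher and 2.67% lower): Hoxa5, Hoxb7 and Hoxc6. In heavy polysome RNA the same 3 genes and Hoxa4 rose (13.3%, against 8.82% called in either direction, 4.83% higher and 3.99% lower). The median over the members was -0.0031 in total RNA and 0.080 in heavy polysomes, beside -0.040 and 0.017 over all tested genes. At an unadjusted p under 0.05 there were 5 members in total RNA (16.7%, against 22.0% of all tested genes), of which Pbx2 was below 0, and 8 in heavy polysomes (26.7%, against 25.4%), all above 0. These shares were near those of all genes. Of the calls over all genes in total RNA 38.5% were higher, against 20.1% with median centring and 54.5% with processed ratios of Feature Extraction, and in heavy polysomes 54.7%, against 43.9% with median centring. Ratios above 0 were found for 14 of 30 members in total RNA (46.7%, against 41.9% of all tested genes) and for 21 in heavy polysomes (70.0%, against 53.3%). Hoxb7 passed the threshold in both fractions under every one of 20 alternative settings. Hoxa5 in heavy polysomes passed under 19 of 20 and was lost with median centring. The other calls rested on the setting or on single arrays, as given with each gene. All of those were lost with heavy polysome arrays 2 and 4 averaged. With the arrays of 1 fraction alone, Hoxa5 was lost in total RNA and Hoxa4 and Hoxc6 in heavy polysomes.

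**Figure D2:**
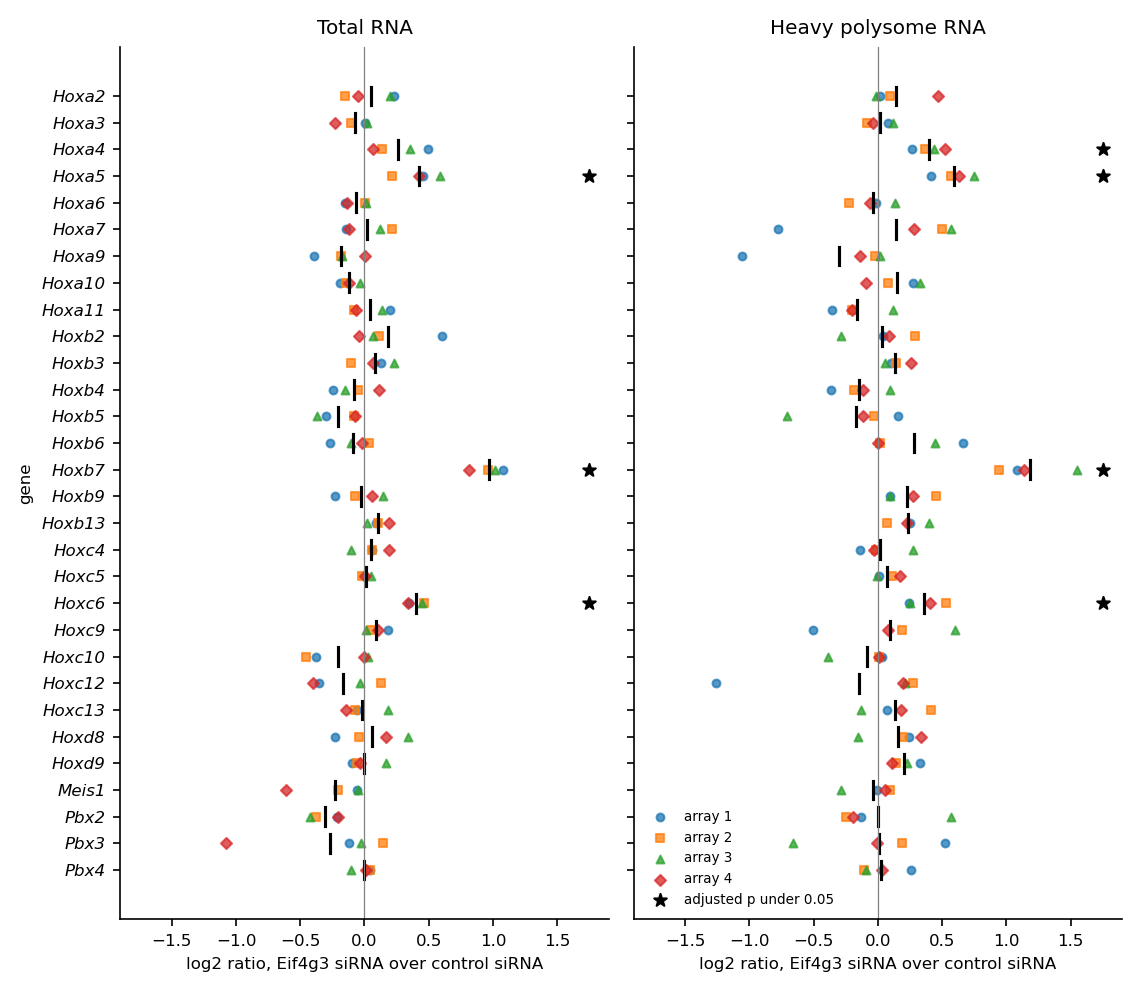
Log2 ratio of Eif4g3 siRNA over control siRNA (horizontal axis) for each of the 30 tested members (vertical axis), in total RNA (left) and heavy polysome RNA (right). Symbols are the 4 arrays, black bars the means, and stars mark an adjusted p under 0.05 (limma). Hoxb7 stands at 0.82 to 1.55 on all 8 arrays, and Hoxa5 and Hoxc6 lie above 0 on each.

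Hoxb7, a gene of the middle of its cluster and the member with the largest change, about doubled. Its ratios were 1.08, 0.96, 1.02 and 0.82 on arrays 1 to 4 of total RNA and 1.08, 0.94, 1.55 and 1.14 on arrays 1 to 4 of heavy polysome RNA. Every array was clearly above 0, and the ranges of the fractions overlapped. The mean was 0.97 ± 0.11 in total RNA (n = 4, 1.96-fold, 95% interval 0.73 to 1.21, adjusted p = 0.0057) and 1.18 ± 0.26 in heavy polysomes (n = 4, 2.27-fold, 95% interval 0.94 to 1.42, adjusted p = 0.0012). The log2 signal of the control channel was 10.65, 10.46, 10.13 and 10.65 on the total RNA arrays, against 11.73, 11.43, 11.14 and 11.47 in the Eif4g3 siRNA channel. In total RNA the channels did not overlap, and all 16 readings were well above background. Its only probe lies on the plus strand at chr11:96105987-96106046 (mm8), and in RefSeq no other gene overlaps the span of Hoxb7. Every alternative setting used this probe with the same dyes, so none separates a dye bias of the probe from a change. The smallest mean over all alternatives in total RNA came from median centring without loess (0.75, adjusted p = 0.046).

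The tested neighbours of Hoxb7 in the cluster did not pass the threshold. Hoxb6, on one side, was at -0.090 ± 0.13 in total RNA and 0.28 ± 0.33 in heavy polysomes (adjusted p = 0.73 and 0.19). Its second probe gave 0.030 and 0.21. Hoxb8, on the other side, was not tested. Hoxb9 was at -0.026 ± 0.16 and 0.23 ± 0.17 (adjusted p = 0.91 and 0.18), and its second probe, also above background in all 16 readings, was at 0.21 ± 0.65 and 0.71 ± 0.25 (adjusted p = 0.59 and 0.067 with every probe tested on its own). The probes of Hoxb9 thus differed in heavy polysome RNA, and with the mean of both probes Hoxb9 passed the threshold there at 0.47.

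The rest of the Hoxb cluster did not pass either. Hoxb5 had one of the lowest means in heavy polysome RNA, with ratios of -0.30, -0.08, -0.37 and -0.07 on the total RNA arrays and 0.15, -0.03, -0.71 and -0.12 on the heavy polysome arrays. The total RNA arrays were all below 0 and the heavy polysome arrays lay on both sides, so the mean was -0.21 ± 0.15 in the one (adjusted p = 0.40) and -0.17 ± 0.37 in the other (adjusted p = 0.46). Hoxb2 was at 0.18 ± 0.29 in total RNA and 0.032 ± 0.24 in heavy polysomes, Hoxb3 at 0.081 ± 0.14 and 0.14 ± 0.087, and Hoxb4 at -0.083 ± 0.15 and -0.14 ± 0.19. Hoxb13, set far from the rest of the cluster at its posterior end, was above 0 on all 8 arrays, with means of 0.10 ± 0.071 and 0.24 ± 0.13 (adjusted p = 0.52 and 0.11). The processed ratios of Feature Extraction placed Hoxb13 at 1.05 in heavy polysome RNA, past the threshold.

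Of the Hoxa genes reported here Hoxa4 and Hoxa5 rose, which lie next to each other. Hoxa5, which takes part in lung and thoracic skeletal development, had ratios of 0.46, 0.22, 0.59 and 0.43 in total RNA, beside 0.41, 0.57, 0.75 and 0.63 in heavy polysomes. They lay above 0 on all 8 arrays. The mean of Hoxa5 was 0.42 ± 0.15 (n = 4, 1.34-fold, adjusted p = 0.038) and 0.59 ± 0.14 (n = 4, 1.51-fold, adjusted p = 0.0069).

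Hoxa4, the gene between Hoxa3 and Hoxa5, rose in heavy polysome RNA and did not pass in total RNA. Its ratios were 0.50, 0.14, 0.35 and 0.07 in total RNA, beside 0.27, 0.36, 0.44 and 0.52 in heavy polysomes. All were above 0, and the total RNA arrays spread more widely. The mean was 0.26 ± 0.20 in total RNA (adjusted p = 0.14) and 0.40 ± 0.11 in heavy polysomes (n = 4, 1.32-fold, adjusted p = 0.033). A second, dimmer Hoxa4 probe, above background in at most 2 of 4 readings per channel and fraction, was at 0.00074 ± 0.14 and 0.087 ± 0.14. Hoxa4 and Hoxa5 were each above background in 15 of 16 readings, with the missing one in the control channel of heavy polysome RNA. Their probes lie on the minus strand at chr6:52119380-52119439 and chr6:52131633-52131692 (mm8). In RefSeq the spans of Hoxa4 and Hoxa5 overlap that of Hoxa3, with Hoxaas3 also over Hoxa5.

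The size of the Hoxa4 and Hoxa5 changes depended on the processing. The processed ratios of Feature Extraction gave 1.40 for Hoxa4 and 1.55 for Hoxa5 in heavy polysome RNA (adjusted p = 0.0091 and 0.0040), and 0.90 and 0.95 in total RNA (adjusted p = 0.053 and 0.028). Without background correction Hoxa4 was at 0.51 and Hoxa5 at 0.71 in heavy polysome RNA, and at 0.34 and 0.45 in total RNA. With median centring in place of loess Hoxa4 was at 0.68 and Hoxa5 at 0.82 in total RNA, and at 0.31 and 0.56 in heavy polysome RNA, and neither passed in either fraction (adjusted p between 0.069 and 0.65). In total RNA the call of Hoxa5 was lost when any 1 of the total RNA arrays was left out and when heavy polysome array 2 or 4 was, with an adjusted p of up to 0.16. The heavy polysome call of Hoxa4 was lost when array 2 or 3 of total RNA or array 2, 3 or 4 of heavy polysome RNA was left out (adjusted p up to 0.15). That of Hoxa5 in heavy polysome RNA passed without any 1 array, with an adjusted p of at most 0.045.

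**Figure D3:**
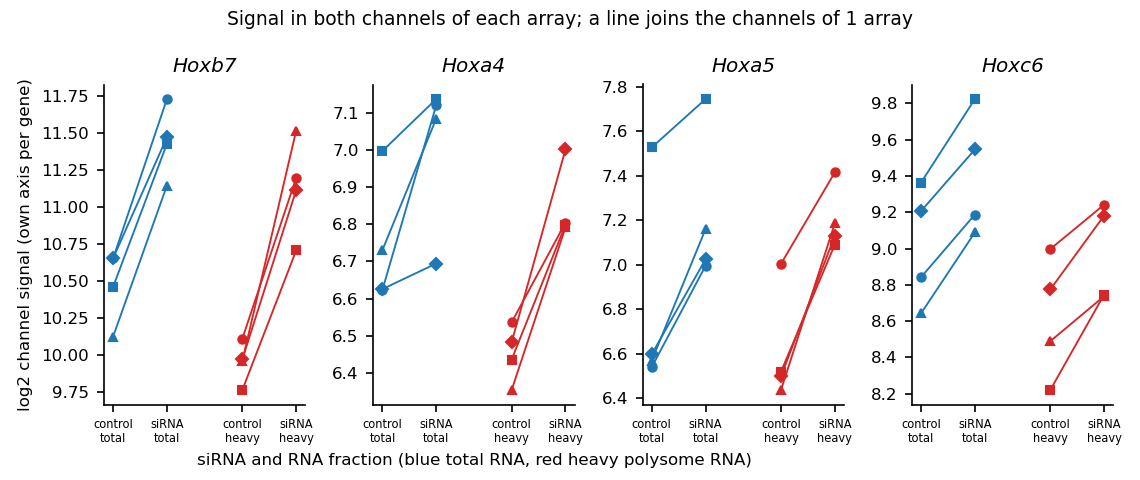
Log2 channel signal after normalisation (vertical axis, scaled for each gene) of the control siRNA and the Eif4g3 siRNA channel in total RNA (blue) and heavy polysome RNA (red), for the 4 genes that rose. A line joins the channels of 1 array, with a marker for each array number, and it slopes upward on all 8 arrays for each gene. Levels of different genes come from different probes and are not comparable.

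The tested genes from Hoxa7 to Hoxa11 did not pass the threshold with all arrays in the fit. Hoxa9, often studied for its part in blood cell and leukaemia biology, had the lowest mean of all members in heavy polysome RNA. Its ratios were -0.39, -0.18, -0.18 and 0.00 in total RNA, beside -1.06, -0.02, 0.01 and -0.14 in heavy polysomes. The heavy polysome mean of -0.30 ± 0.51 (adjusted p = 0.29) thus rested on array 1, and the total RNA mean was -0.19 ± 0.16 (adjusted p = 0.56). Hoxa7 was at 0.018 ± 0.18 in total RNA and 0.14 ± 0.63 in heavy polysomes, with -0.78 on heavy polysome array 1 against 0.50, 0.57 and 0.28 on the others. Without that array its mean was 0.45 (adjusted p = 0.038). Hoxa10 was below 0 on all 4 total RNA arrays and above 0 on 3 of 4 heavy polysome arrays, with means of -0.12 ± 0.066 and 0.15 ± 0.19. Hoxa11 had ratios of 0.20, -0.08, 0.13 and -0.07 in total RNA, beside -0.36, -0.20, 0.12 and -0.20 in heavy polysomes. Both sets lay on both sides of 0, with means of 0.047 ± 0.14 and -0.16 ± 0.20.

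Hoxa2, Hoxa3 and Hoxa6 did not pass in either fraction. Hoxa2, which patterns the neural crest of the second branchial arch, was at 0.054 ± 0.19 in total RNA and 0.14 ± 0.22 in heavy polysomes. Hoxa3, needed for thymus and parathyroid formation, was at -0.078 ± 0.11 and 0.018 ± 0.097. Hoxa6 was at -0.069 ± 0.088 and -0.042 ± 0.15 and was well above background in the control channel on all 4 total RNA arrays, but in the Eif4g3 siRNA channel on none. In heavy polysome RNA the control channel was above it on 1 array and the other channel on none. Its ratios were above 0 on 2 of 4 total RNA arrays and on 1 of 4 heavy polysome arrays, and both intervals held 0 (-0.26 to 0.13 and -0.24 to 0.15, adjusted p = 0.70 and 0.81).

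In the Hoxc cluster Hoxc6 rose in both fractions, and the other 6 tested genes did not pass. Hoxc6, a gene of the middle of the cluster, had ratios of 0.35, 0.46, 0.45 and 0.34 in total RNA, beside 0.24, 0.53, 0.25 and 0.41 in heavy polysomes. All arrays were above 0, and the fractions overlapped. Its mean was 0.40 ± 0.064 in total RNA (n = 4, 1.32-fold, adjusted p = 0.033) and 0.36 ± 0.14 in heavy polysomes (n = 4, 1.28-fold, adjusted p = 0.030). All 16 readings of its probe, on the plus strand at chr15:102839635-102839696 (mm8), were above background, and no other gene overlaps its span in RefSeq. In total RNA the call did not pass when any 1 array of that fraction or heavy polysome array 2 or 4 was left out (adjusted p up to 0.14). The heavy polysome call did not pass when array 2 or 3 of total RNA or array 2 or 4 of heavy polysome RNA was left out (adjusted p up to 0.13), and both calls were lost with Feature Extraction ratios (0.46 and 0.42, adjusted p = 0.061 and 0.070) and with median centring (0.25 and 0.33, adjusted p = 0.24 and 0.37).

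The neighbours of Hoxc6 were close to 0. Hoxc5 was at 0.0086 ± 0.033 in total RNA and 0.070 ± 0.086 in heavy polysomes, and Hoxc4 at 0.053 ± 0.12 and 0.020 ± 0.18. The processed ratios of Feature Extraction put Hoxc5 past the threshold in heavy polysome RNA, although its probe was above background in 6 of 16 readings. Hoxc9, on the other side of Hoxc8, which was not tested, was at 0.088 ± 0.074 and 0.091 ± 0.46. Hoxc10 was at -0.20 ± 0.25 and -0.084 ± 0.20, Hoxc12 at -0.17 ± 0.26 and -0.15 ± 0.74, and Hoxc13, known for its role in hair and nails, at -0.022 ± 0.14 and 0.13 ± 0.23. The wide SD of Hoxc9 and Hoxc12 came with low values on heavy polysome array 1 of -0.51 and -1.26.

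The detected Hoxd genes did not pass. Hoxd8 was at 0.060 ± 0.25 in total RNA and 0.15 ± 0.22 in heavy polysomes (adjusted p = 0.82 and 0.45). Hoxd9 was at -0.0051 ± 0.12 and 0.20 ± 0.097 (adjusted p = 0.98 and 0.17), and it was above 0 on all 4 heavy polysome arrays. Its second probe was at -0.17 ± 0.023 and 0.075 ± 0.085 (adjusted p = 0.21 and 0.58).

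The tested paralogues of the genes that rose did not pass. Of the genes numbered 6, Hoxc6 rose by 0.40 in total RNA and 0.36 in heavy polysomes, beside -0.069 and -0.042 for Hoxa6 and -0.090 and 0.28 for Hoxb6. Of the genes numbered 7, Hoxb7 rose by 0.97 and 1.18, beside 0.018 and 0.14 for Hoxa7. Of the genes numbered 5, Hoxa5 rose by 0.42 and 0.59, beside -0.21 and -0.17 for Hoxb5 and 0.0086 and 0.070 for Hoxc5. Hoxa4, at 0.40 in heavy polysomes, had paralogues there at -0.14 (Hoxb4) and 0.020 (Hoxc4). These differences between paralogues were not tested.

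Of the Hox partners Pbx2, Pbx3, Pbx4 and Meis1 all 4 had means below 0 in total RNA, Pbx4 only just (-0.0012). Over all tested genes 41.9% were above 0 there. None of the 4 passed in either fraction. Pbx2, encoded within the major histocompatibility region, had ratios of -0.21, -0.38, -0.43 and -0.20 in total RNA, beside -0.13, -0.25, 0.57 and -0.20 in heavy polysomes. Total RNA was low on all 4 arrays, and heavy polysome array 3 stood apart. Its mean was -0.30 ± 0.11 in total RNA (n = 4, adjusted p = 0.22) and -0.0021 ± 0.38 in heavy polysomes (n = 4, adjusted p = 0.99), and without heavy polysome array 3 the total RNA value passed (adjusted p = 0.048). The second Pbx2 probe was at -0.41 ± 0.18 in total RNA (adjusted p = 0.048 with every probe tested on its own) and -0.067 ± 0.15 in heavy polysomes. Pbx3 had ratios of -0.12, 0.15, -0.03 and -1.08 in total RNA, beside 0.52, 0.19, -0.66 and 0.00 in heavy polysomes. Its total RNA mean of -0.27 ± 0.55 (n = 4, adjusted p = 0.52) rested on array 4, and the heavy polysome mean was 0.012 ± 0.50 (n = 4, adjusted p = 0.98). Pbx4 was at -0.0012 ± 0.070 and 0.022 ± 0.17. Meis1, a cofactor of Hox proteins in haematopoietic cells, had ratios of -0.06, -0.21, -0.05 and -0.61 in total RNA, beside -0.01, 0.09, -0.28 and 0.06 in heavy polysomes. Total RNA was below 0 on all 4 arrays and lowest on array 4, and the means were -0.23 ± 0.26 and -0.035 ± 0.17 (adjusted p = 0.27 and 0.88). In total RNA Pbx2 stayed below 0 under every alternative. Pbx3 came to -0.00087 without the 3 arrays of lowest correlation, which include total RNA array 4. Meis1 was at 0.0067 with median centring, and Pbx4 took either sign, with 0.45 under median centring.

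Probes of the same families under other names lay outside the rule. Meis2, named Mrg1 in the scanner tables, was at -0.60 ± 0.57 in total RNA and -0.29 ± 0.15 in heavy polysomes (adjusted p = 0.091 and 0.35), and its second probe was at -0.29 ± 0.30 and -0.048 ± 0.39. Meis3, named Mrg2, was at -0.28 ± 0.19 and 0.17 ± 0.22 (adjusted p = 0.17 and 0.37).

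The difference between fractions, heavy polysome minus total RNA, asks whether knockdown changed a transcript in heavy polysomes beyond its change in abundance. No member passed in limma (0 of 30, against 0% of all genes, 0 of 14849), and at an unadjusted p under 0.05 there were 0 members and 784 of all genes. Differences ran from -0.21 for Hoxa11 to 0.37 for Hoxb6, with a median of 0.095 over the members and 0.059 over all tested genes. For Hoxb7 the difference was 0.21 (95% interval -0.13 to 0.55), for Hoxa4 0.13 (-0.17 to 0.43), for Hoxa5 0.17 (-0.13 to 0.46) and for Hoxc6 -0.041 (-0.31 to 0.22). Each interval holds 0. For Hoxb7 and Hoxc6 the limits of the interval were smaller than the gene's own change in either fraction. For Hoxa4 and Hoxa5 the upper limits exceeded the gene's change in total RNA (0.26 and 0.42). Their intervals thus do not bound the difference below the size of that change. The lowest unadjusted p belonged to Hoxb6 (0.059, interval -0.017 to 0.76) and Hoxa10 (0.068, interval -0.024 to 0.56).

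Heavy polysome RNA was also set against total RNA within each siRNA group, as the log2 signal of 1 dye in heavy polysome arrays minus that in total RNA arrays. Equal masses of RNA were labelled, so each value stands relative to the rest of its sample. Each slide held arrays of 1 fraction, so slide and fraction cannot be told apart in these values. Hoxb2, a gene of hindbrain patterning, read lower on the heavy polysome arrays. Its control channel read 9.53, 10.84, 9.81 and 9.52 on the total RNA arrays and 8.36, 8.35, 8.65 and 8.63 on the heavy polysome arrays, with no overlap. The difference was -1.43 (95% interval -2.07 to -0.79, 2.69-fold lower, n = 4 per fraction, adjusted p = 0.035), and Hoxb2 was the 1 member of 30 that passed in control cells, against 2.28% of all genes called in either direction and 2.27% called lower. In Eif4g3 siRNA cells its channel read 10.13, 10.95, 9.88 and 9.48 against 8.40, 8.64, 8.36 and 8.71, again with no overlap. There the difference was -1.58 (95% interval -2.24 to -0.92, n = 4 per fraction, adjusted p = 0.077), and no member passed (0 of 30, against 0.155% of all genes). At an unadjusted p under 0.05 there were 3 members (10.0%, against 12.3% of all genes).

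The Hoxb2 call in control cells was lost when array 3 of total RNA or any 1 array of heavy polysome RNA was left out (adjusted p up to 0.13), without a filter on dim probes (0.092) and with processed signals scaled to the 75th percentile (0.055). In the direct comparison of siRNAs Hoxb2 was at 0.18 and 0.032, as given above. Its probe lies on the plus strand at chr11:96169898-96169957 (mm8), and in RefSeq Hoxb3os overlaps the span of Hoxb2. A second Hoxb2 probe, placed on the minus strand, was above background in 1 of 16 readings.

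In control cells 29 of 30 members were below 0 in heavy polysome relative to total RNA, and in Eif4g3 siRNA cells 21 of 30 were. The medians over the members were -0.22 and -0.16, beside -0.023 and 0.015 over all tested genes, of which 46.5% and 51.9% were above 0. After Hoxb2 came Hoxc9, at -0.74 in both groups (adjusted p = 0.25 in control cells and 0.30 in Eif4g3 siRNA cells), and neither interval held 0 (-1.33 to -0.15 and -1.32 to -0.15). Hoxb7 was at -0.52 in control cells and -0.31 in Eif4g3 siRNA cells (adjusted p = 0.20 and 0.60). In control cells its interval (-0.90 to -0.145) did not hold 0, nor did that of Hoxb9 (-0.92 to -0.032, adjusted p = 0.36). In Eif4g3 siRNA cells that of Hoxa11 did not (-0.85 to -0.0060, adjusted p = 0.40). Control cells had 4 members at an unadjusted p under 0.05 (13.3%, against 12.4% of all genes). Hoxc6 was at -0.39 and -0.43, Hoxa4 at -0.29 and -0.16 and Hoxa5 at -0.19 and -0.026. Hoxc4 was the member above 0 in control cells, at 0.14. The limit set by the slides holds for all of these values.

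**Figure D4:**
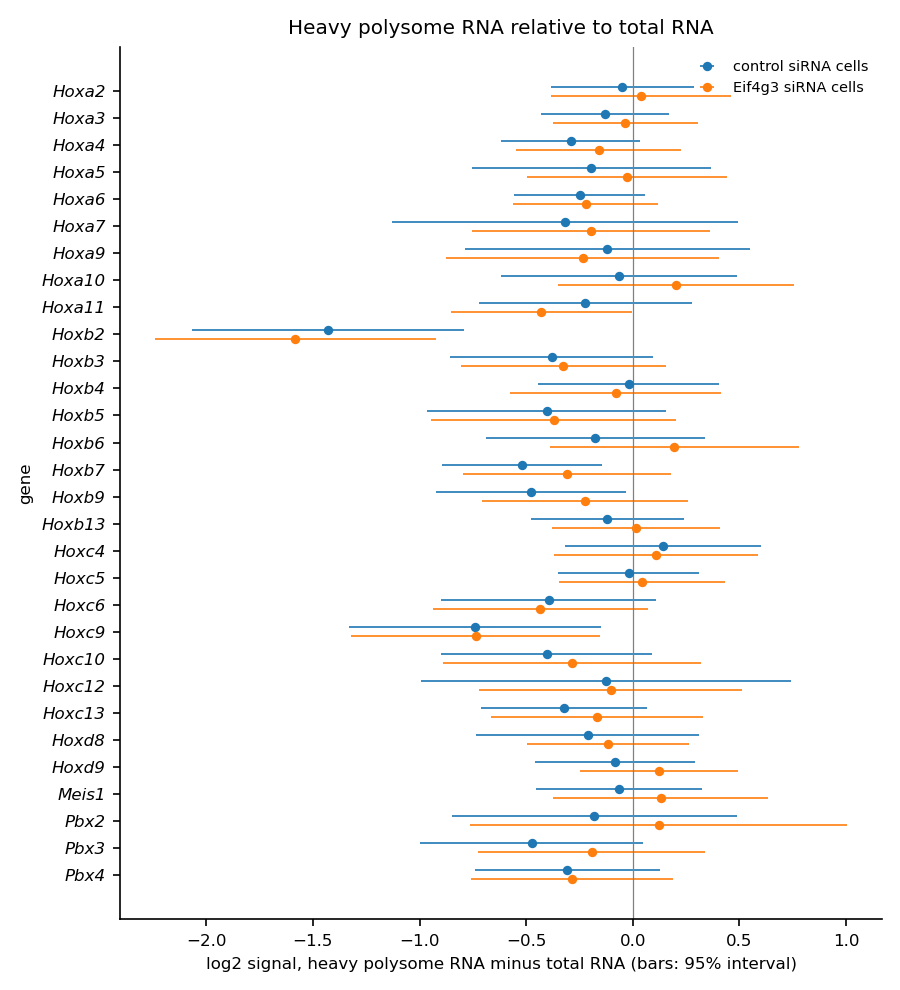
Log2 signal in heavy polysome RNA minus total RNA (horizontal axis) for the 30 tested members (vertical axis), in control siRNA cells (blue) and Eif4g3 siRNA cells (orange). Points are means over 4 arrays per fraction and bars are 95% intervals. Hoxb2 lies lowest, at -1.43 and -1.58, and most other intervals hold 0.

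Genes around the Hox network were read from lists of known cofactors and regulators. Over all tested genes 4.34% were called in total RNA and 8.82% in heavy polysomes in either direction. At an unadjusted p under 0.05 the shares were 22% and 25.4%. Whether the lists differ from these shares was not tested. Of 9 tested TALE relatives (Pknox, Tgif and Irx genes and Mkx) none passed in limma in either fraction (2 and 0 at an unadjusted p under 0.05), with list medians of 0.047 in total RNA and -0.016 in heavy polysomes. Of 11 tested genes of Polycomb repressive complex PRC2, which keeps Hox clusters silent through methylation of histone H3, Mtf2 rose in both fractions (0.68 ± 0.20, adjusted p = 0.031, and 1.21 ± 0.37, adjusted p = 0.0031). Phf1 rose in heavy polysome RNA (0.59 ± 0.23, adjusted p = 0.021), and Suz12, a core subunit, fell in total RNA (-0.72 ± 0.41, adjusted p = 0.029) and was at -0.51 ± 0.19 in heavy polysomes (adjusted p = 0.059). Mtf2 and Phf1 are accessory subunits that help the complex bind chromatin. The other core subunits Ezh2 and Eed were at -0.12 and 0.19 in total RNA and did not pass. List medians were 0.18 and 0.14, with 4 and 3 genes at an unadjusted p under 0.05.

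Of 18 tested PRC1 genes, 1 fell in total RNA and 3 rose in heavy polysomes. Scmh1 fell in total RNA (-1.003 ± 0.37, adjusted p = 0.012). In heavy polysome RNA Rnf2, the ubiquitin ligase of the complex, was at 1.03 ± 0.38 (adjusted p = 0.0055), Pcgf3 at 0.81 ± 0.21 (adjusted p = 0.0038) and Pcgf6 at 0.38 ± 0.18 (adjusted p = 0.032). The list medians were -0.14 and 0.0073, with 6 and 5 genes at an unadjusted p under 0.05. Of 20 tested trithorax and demethylase genes, which act against Polycomb, Ash2l rose in both fractions (0.84 ± 0.29, adjusted p = 0.014, and 0.91 ± 0.29, adjusted p = 0.0059) and the other 19 did not pass, with list medians of -0.12 and 0.088. Of 12 tested genes that act upstream of Hox clusters or bind them, Nup98 fell in both fractions (-0.56 ± 0.32, adjusted p = 0.034, and -0.85 ± 0.076, adjusted p = 0.0046). List medians were 0.011 and -0.0058, and the inducers Cdx1, Cdx2, Cdx4 and Wnt3a were not tested. At an unadjusted p under 0.05 there were 3 and 4 trithorax and demethylase genes, and 4 and 5 of these upstream or binding genes.

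Of 33 tested homeobox genes of mesenchyme and lymphoid stroma outside the Hox clusters, 1 fell in total RNA, and 2 rose and 2 fell in heavy polysomes. Six5 fell in both fractions (-0.43 ± 0.083, adjusted p = 0.041, and -0.43 ± 0.21, adjusted p = 0.024), and Tshz3 fell in heavy polysome RNA (-0.42 ± 0.20, adjusted p = 0.031). Prrx2, a gene of limb and craniofacial mesenchyme, rose in heavy polysome RNA (0.98 ± 0.28, adjusted p = 0.0046), as did Meox1, a gene of somites (0.60 ± 0.27, adjusted p = 0.024). The list medians were 0.028 and 0.14, with 9 and 11 genes at an unadjusted p under 0.05. Markers of fibroblastic stroma moved in the same libraries. Col1a2 fell in both fractions (-0.46 ± 0.28, adjusted p = 0.049, and -0.42 ± 0.092, adjusted p = 0.046), and Pdgfra, Pdgfrb and Col1a1 fell in heavy polysome RNA (-0.65, -0.47 and -0.67, adjusted p = 0.011, 0.045 and 0.023). Cxcl12 rose there (0.78, adjusted p = 0.020). At an unadjusted p under 0.05 there were 6 of these markers in total RNA and 9 in heavy polysomes. Medians of the 14 tested markers were -0.23 in total RNA and -0.26 in heavy polysomes, and the log2 of their summed signal ran from 17.55 to 17.88 in control and 17.13 to 17.76 in knockdown cells in total RNA, and from 17.46 to 17.82 and 17.43 to 17.70 in heavy polysome RNA. The part of these markers, and of the macrophage markers, in the Hox values was not tested. Fewer cells of a type and less RNA per cell cannot be told apart in these bulk samples.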

How the data were processed

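The 8 arrays, 4 per fraction, were grouped by the labels. The design text gives 7 plates, with cells pooled before fractionation, and 200 ng of RNA was labelled per the labels' protocols. Per the file headers, Feature Extraction 10.7.3.1 made 7 of the deposited scanner tables and 10.5.1.1 that of total RNA array 2. They hold spot signals as intensity, and processed ratios that the authors deposited as log10 of the Cy5 to Cy3 quotient. A further deposited table gives log2 ratios, which lay within 0.01 of the processed ones for at least 99.76% of 41267 probes. Its column medians over all probes were -0.21 to 0.31, whereas the processed ratios had medians of -0.0020 to 0.080 over tested genes. Feature Extraction is also named, with no version, in the submitters' processing notes. Probe coordinates are on mm8. RefSeq tables of GRCm38.p6 gave current names for 30107 of 41174 probes, gene overlaps and promoter sequences.

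Mean signals were corrected with normexp (offset 50) and ratios normalised by loess within each array (span 0.3). Control spots had no weight, and 131 to 241 marked spots per array were left out. No spot was saturated and no member value was missing. Well above background were 37.6% to 57.5% of probes in Cy3 and 43.1% to 53.5% in Cy5, and the number of arrays limits the precision. Spots of a probe were averaged, and the brightest probe stood for its gene. limma (version 3.58.1, R 4.3.3) was fitted with 1 coefficient per fraction over the 8 arrays, two-sided, with Benjamini-Hochberg adjustment over 14849 genes and a threshold of 0.05. Single channels were compared after loess and Aquantile normalisation. The code was tested on simulated data. Plots used matplotlib 3.10.9.

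Arrays lay on 5 slides, each of 1 fraction, and slide entered as a random block in an alternative. The slide correlation was -0.267 for ratios, 0.082 for the control channel and -0.18 for the Eif4g3 siRNA channel. Such a block cannot separate slide from fraction in the single-channel comparisons. The labels do not say whether replicate numbers pair the fractions, so pairing entered only in an alternative. Heavy polysome arrays 2 and 4 were closest (r = 0.884). The SD of their difference was 0.154, beside 0.112 from repeated spots. Repeated spots lie within 1 array and hold no variation of labelling or slide. The comparison therefore cannot show whether the arrays are technical repeats. Both were kept, and their average entered in an alternative. Of the 43 genes under the rule for members, 2 are not reported here and are left out of every count of members, while the fit over all genes keeps them. The members, lists and tests were chosen with earlier results of these data known. Every tested member is named with both means, with the value on every array for members past the threshold and for the 3 highest and 3 lowest means of each fraction, and genes of the lists are named where they passed.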

Additional observations from a re-analysis of the deposited data

Results flagged for a closer look

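Among 62 groups of 4 arrays (30 members and Eif4g3, in both fractions), 4 held an array that stood apart from the other 3 by more than the 95% critical value of Dixon's test. Chance gives about 1 in 20. All 4 were in heavy polysome RNA, on arrays 1 and 3, which had the lowest mean correlations with the others of that fraction. Hoxa9 was at -1.06 on heavy polysome array 1, with the others between -0.14 and 0.015. Hoxc12 was at -1.26 on the same array, with the others between 0.20 and 0.27. Hoxc10 was at -0.39 on heavy polysome array 3, with the others between 0.011 and 0.029. Pbx2 was at 0.57 on heavy polysome array 3, with the others between -0.25 and -0.13. None of these genes passed the threshold in that fraction.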

How the results depend on the processing

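No called member value changed sign under any alternative. The count of 3 members called in total RNA became 1 with median centring in place of loess, 1 with heavy polysome arrays 2 and 4 averaged, and 5 without the 3 arrays of lowest correlation, a setting chosen after seeing the data. The count of 4 in heavy polysome RNA became 1 with median centring and 2 with arrays 2 and 4 averaged or the heavy polysome arrays alone. Leaving out 1 array gave 1 to 4 members in total RNA and 2 to 5 in heavy polysome RNA. The single call in control cells became 0 without a filter, and 0 to 1 on leaving out 1 array. With processed signals it moved from Hoxb2 to Hoxa6. In Eif4g3 siRNA cells the count of 0 became 1 (Hoxb2) with slide as a random block or processed signals, and 0 to 1 on leaving out 1 array. The causes were not tested. Correlations of same-numbered arrays across fractions were -0.016, 0.17, -0.11 and -0.30 for replicates 1 to 4. Only replicate 2 correlated best with its own number. With 4 noisy arrays per fraction these values cannot decide whether the numbers pair the samples. The replicate block gave 0 members in the difference, 0 in control cells and 0 in Eif4g3 siRNA cells. The member detection rule counted 32 members with at least 2 arrays, 28 with all 4 arrays and 26 with both channels, beside 30. Over all genes the count called ran from 52 to 3225 in total RNA (644 as reported), from 196 to 2641 in heavy polysome RNA (1310), from 64 to 366 in control cells (339) and from 3 to 182 in Eif4g3 siRNA cells (23), and stayed 0 for the difference. Signal over background limits Hoxa2, Hoxa6, Hoxc5 and Hoxd9, which were not above it in both channels. Hoxa4 and Hoxa5 also read low, as given with these genes.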
